A study of Mus musculus with 40 samples.

Results

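The genes that release, take up and bind calcium in muscle fibers were followed through 40 mRNA-seq libraries of mouse extensor digitorum longus (EDL), a fast hindlimb muscle. There were 10 of these genes, taken by name from the 22844 genes of the deposited tables: Ryr1, Cacna1s, Stac3 and Jph1 for release, Atp2a1, Atp2a2 and Sln for reuptake, and Casq1, Casq2 and Pvalb for buffering. No expression value entered the choice of names, although earlier results of these data were known when it was made. All 10 were among the 13543 genes with enough counts to be tested.

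TSCmKO mice lack Tsc1 in skeletal muscle fibers. Tsc1 restrains the kinase complex mTORC1, which promotes growth, so mTORC1 stays active in these fibers. CON mice were littermates with the same floxed Tsc1 alleles and no Cre recombinase (genotype label Tsc1fl/fl), and the strain label was Tsc1tm1Djk/J for every mouse. The promoter that drives Cre is not given in the sources used here. At an age of 3 or 9 months, mice were injected into the peritoneum on 3 days with vehicle or with rapamycin (RM), which inhibits mTORC1, at 4 mg per kg per the labels, whereas the study text gives a higher dose, so the dose is uncertain. The 8 groups were 3mCON, 3mCON+RM, 3mTSCmKO, 3mTSCmKO+RM and the same 4 at 9 months, with 5 mice each and 1 library per mouse. RNA came from whole muscle, so fewer fibers of a type and less RNA per fiber cannot be told apart.

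In skeletal muscle, an action potential entering the transverse tubule moves the voltage sensor, whose main subunit is encoded by Cacna1s. The sensor opens the ryanodine receptor Ryr1 in the facing membrane of the sarcoplasmic reticulum, with Stac3 as an adaptor of the sensor and Jph1 (junctophilin) holding both membranes together. Calcium is pumped back by SERCA1 (Atp2a1), the pump of fast fibers, or SERCA2 (Atp2a2), the pump of slow fibers and heart, and sarcolipin (Sln) is a short membrane peptide that lowers the efficiency of the pump. Inside the reticulum calcium is bound by calsequestrin, Casq1 in fast fibers and Casq2 in slow fibers and heart, and in the cytosol of fast fibers by parvalbumin (Pvalb).

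Sarcolipin is small enough to be shown whole, since its mRNA changed most steeply with age in TSCmKO muscle. The coding sequence lies in 1 exon (exon 2) on the plus strand at chr9:53853473-53853568 (GRCm38, GENCODE M21 transcripts), with 96 bases, 31 codons before the stop, and the start and stop codons in capitals.
Sln coding sequence: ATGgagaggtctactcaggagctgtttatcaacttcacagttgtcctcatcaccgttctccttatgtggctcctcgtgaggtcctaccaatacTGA
The pump genes encode near-identical proteins over long stretches, which bears on whether reads of 50 bases can tell them apart. The 80 coding bases shown hold the longest run that both share, 44 bases, and 9 differences in capitals. They lie on the minus strand, at chr7:126448168-126448247 for Atp2a1 and at chr5:122459982-122460061 for Atp2a2 (GRCm38).
Atp2a1: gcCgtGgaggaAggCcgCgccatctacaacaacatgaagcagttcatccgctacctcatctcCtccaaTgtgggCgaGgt
Atp2a2: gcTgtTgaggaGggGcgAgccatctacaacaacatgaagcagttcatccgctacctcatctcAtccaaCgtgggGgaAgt
Of all stretches of 31 bases in Atp2a1 transcripts, 0.748% (26 of 3476) occurred in another gene, and 0.267% (14 of 5247) of those of Atp2a2, so few reads could be shared between the pumps. For Sln, Casq1, Casq2 and Pvalb the share was 0, and for the other genes at most 0.502%.

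Promoters were in the RefSeq table (GRCm38.p6) for 6 of the 10 genes. A CAGCTG motif, an E-box of the kind bound by myogenic factors, was searched in windows of 300 bases around the start site, on both strands (it reads the same on each), and the MEF2 motif on both strands. Both were chosen after expression values had been seen. CAGCTG was in the windows of 3 of the 6 genes and in 16.3% of all 32851 promoters, and the MEF2 motif was in 2 of 6 and in 3.19%. A match is a description of letters, not of a bound site. Stretches of 60 bases are shown in the direction of transcription because the first 3 genes had lower mRNA in 9mTSCmKO and Casq2 a higher one, with the motif in capitals.
Cacna1s (chr1:136052661-136052720, plus strand): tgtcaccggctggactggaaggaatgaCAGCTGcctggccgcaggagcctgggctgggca
Casq1 (chr1:172220058-172220117, minus strand): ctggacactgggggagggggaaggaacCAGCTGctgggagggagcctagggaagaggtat
Atp2a1 (chr7:126463096-126463155, minus strand): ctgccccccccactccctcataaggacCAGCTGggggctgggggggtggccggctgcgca
Casq2 (chr3:102086319-102086378, plus strand): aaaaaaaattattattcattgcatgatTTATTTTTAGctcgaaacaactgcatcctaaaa
Pvalb (chr15:78206548-78206607, minus strand): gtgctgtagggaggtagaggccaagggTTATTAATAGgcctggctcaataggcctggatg

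Libraries held 8883870 to 35224669 counts. Tsc1 itself was lower in TSCmKO than in CON in all 4 pairs of groups, with log2 fold changes of -1.99, -1.55, -1.903 and -1.97 for 3 months, 9 months, 3 months with rapamycin and 9 months with rapamycin. A measure of long-transcript recovery was taken for each library: the median log2 deviation of 902 genes with transcripts of 7000 nt or more minus that of 1706 genes of 1000 to 2000 nt. In 4 libraries it lay between -1.004 and -0.734 (9mCON replicate 2, 9mCON+RM replicate 1, 9mTSCmKO replicate 3 and 9mTSCmKO+RM replicate 1), and in the other 36 between -0.37 and 0.33. One such library fell in each 9-month group and none in a 3-month group. The measure was still not balanced by group at 9 months. Its median was lowest in 9mTSCmKO, at -0.262, and stood at -0.053 once that genotype received rapamycin. Control muscle of the same age had medians of -0.034 on vehicle and 0.025 on rapamycin. Ranges of these groups overlapped, and the differences in the measure were not tested. The measure matters most for Ryr1, whose longest coding transcript has 15358 nt, against 977 nt for Pvalb. It was therefore also added to the test as a term, and it ended the call of none of the 10 genes in any comparison. Leaving out the 4 libraries ended 4 calls: Atp2a1 for genotype by age (-0.67, adjusted p = 0.0693), Casq1 for rapamycin in 9mCON (-0.41, adjusted p = 0.0764), and Jph1 (0.63, adjusted p = 0.055) and Atp2a1 (0.62, adjusted p = 0.108) for rapamycin by genotype at 9 months.

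Levels are given below in TMM-scaled CPM, a gene's counts relative to the total of its library, which are comparable between libraries for a gene. Between genes they are compared per length, in TPM. In 9mCON the order of mean TPM was Pvalb (29263 ± 6969, SD, n = 5), Atp2a1 (21230.2 ± 3695), Casq1 (4560.2 ± 583), Ryr1 (636 ± 330.3), Cacna1s (573 ± 157), Stac3 (292 ± 15.3), Jph1 (281 ± 64.4), Casq2 (22.6 ± 0.775), Atp2a2 (19.5 ± 7.25) and Sln (2.01 ± 0.574). Ranges over the 5 libraries overlapped between Pvalb and Atp2a1, between Ryr1 and Cacna1s, between Stac3 and Jph1 and between Casq2 and Atp2a2, so those neighbours were not separated. The 10 genes together took 5.29% to 6.34% of TPM in 9mCON and 3.49% to 5.21% in 9mTSCmKO.

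**Figure D1:**
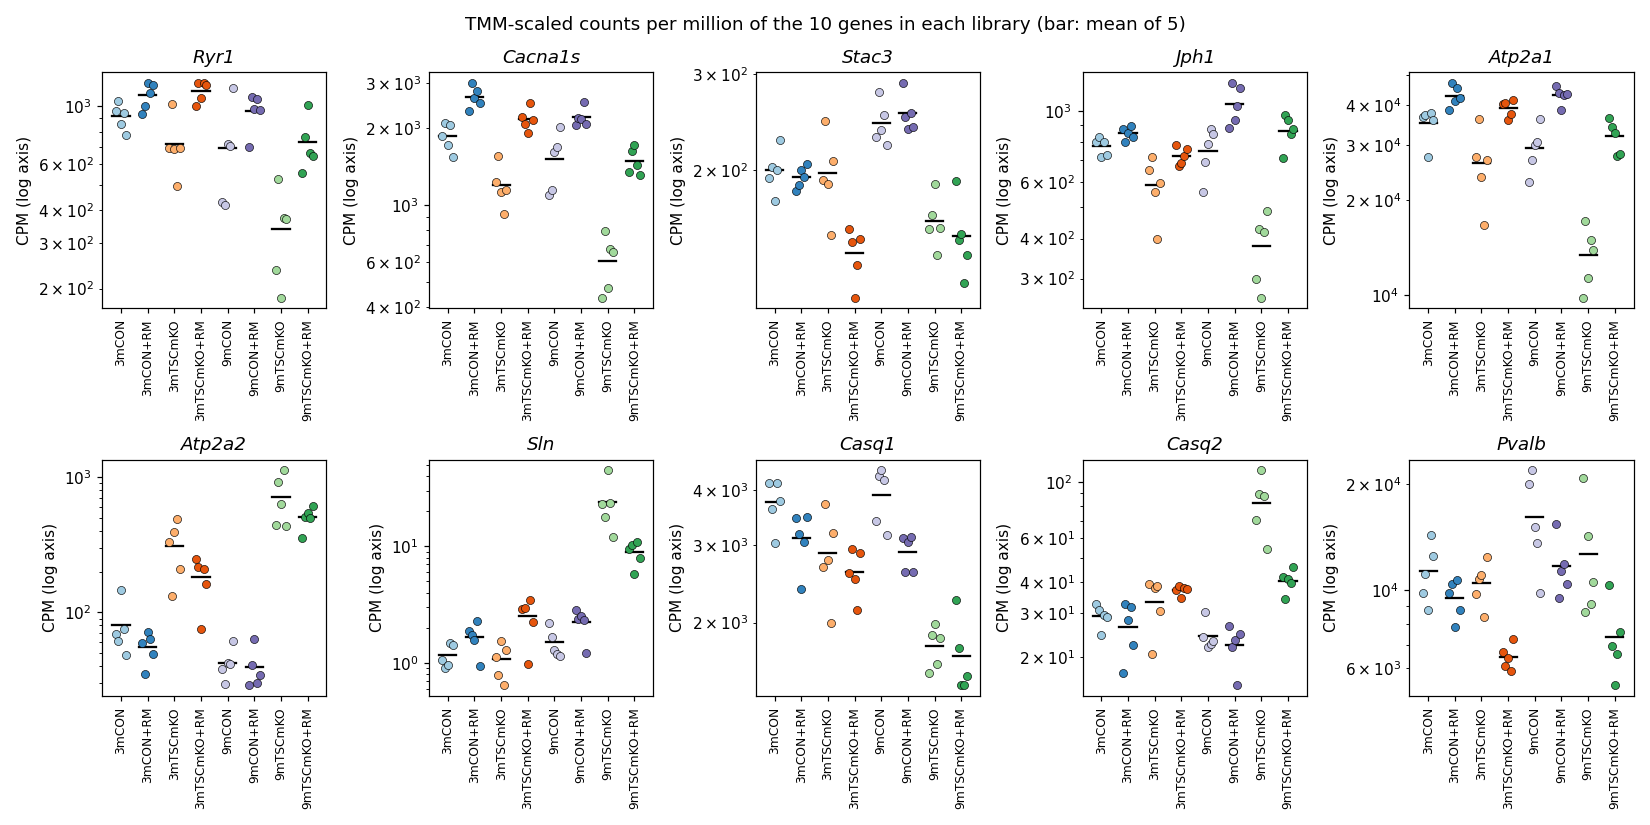
TMM-scaled CPM (log axis) of the 10 genes in each of the 40 libraries, by group, with a bar at the mean of 5. Atp2a2, Sln and Casq2 in 9mTSCmKO sit above every 9mCON library, and Cacna1s, Stac3, Jph1, Atp2a1 and Casq1 sit below every 9mCON library.

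At 9 months, TSCmKO muscle had less mRNA of the 4 release genes, the pump Atp2a1 and Casq1, and more of Atp2a2, Sln and Casq2. Of the 10 genes, 9 passed the threshold (adjusted p under 0.05, edgeR quasi-likelihood test with Benjamini-Hochberg adjustment over all genes), 3 higher and 6 lower, where 37.9% of all genes tested did so (19.1% higher and 18.9% lower). For 8 genes, 3 higher and 5 lower, the groups did not overlap, against 16.0% of all genes. The median log2 fold change over the 10 genes was -0.79, and -0.02 over all genes tested.

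The release genes were all lower. Ryr1 was measured at 429, 419, 719, 705 and 1182 CPM in 9mCON, replicates 1 to 5 in order as in all lists of values here. In 9mTSCmKO it was at 235, 526, 184, 374 and 369 CPM. Only the highest TSCmKO library reached into the CON range, and the lowest was the one with the lowest long-transcript measure. The log2 fold change of Ryr1 was -1.03 ± 0.23, adjusted p = 0.000408 (± standard error). Cacna1s, the voltage sensor, stood at 1098, 1149, 1619, 1691 and 2034 CPM in 9mCON. The knockout libraries of that age gave 435, 792, 475, 675 and 658 CPM for Cacna1s. Every knockout value lay under every control value (log2 fold change -1.32 ± 0.15, adjusted p = 8.19e-09).

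Jph1 values were 559, 692, 786, 875 and 847 CPM in 9mCON and 299, 427, 262, 418 and 487 CPM in 9mTSCmKO, without overlap (log2 fold change -0.99 ± 0.14, adjusted p = 5.94e-07). Stac3, the adaptor, had the smallest fold change among the 9 genes that passed, at -0.60 ± 0.11, adjusted p = 4.26e-05, on CPM of 230.2, 279, 237, 253 and 222 in 9mCON and 156, 165, 189, 139.7 and 157 in 9mTSCmKO. These Stac3 values varied little within a group, and the groups stood apart.

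Among the reuptake genes, the pumps went in opposite directions. Atp2a1 CPM were 22890.4, 26885, 29867, 30539.6 and 36108 in 9mCON and 9835, 17239, 11313, 14982 and 13964 in 9mTSCmKO. All 5 knockout libraries were below the lowest control (log2 fold change -1.12 ± 0.15, adjusted p = 1.36e-07). Atp2a2 CPM were 38.0, 29.7, 42.1, 41.2 and 60.9 in 9mCON and 442, 921, 638, 1123 and 432 in 9mTSCmKO. Even the lowest knockout value was far over the highest control (log2 fold change 4.07 ± 0.36, adjusted p = 3.60e-11). Sln, the pump-inhibiting peptide, was close to the filter of 1 CPM in controls, at 2.18, 1.66, 1.30, 1.20 and 1.14 CPM, which rested on 16 to 37 counts per library. In 9mTSCmKO it reached 23.3, 17.7, 44.9, 23.5 and 11.9 CPM on 273 to 804 counts (log2 fold change 4.02 ± 0.31, adjusted p = 5.15e-13). The groups were far apart, although the knockout libraries themselves differed widely.

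The buffering genes divided as the pumps did. Casq1 was measured at 3406, 4307, 4433, 4221 and 3159.7 CPM in 9mCON and 1534, 1876, 1990.5, 1609 and 1843 CPM in 9mTSCmKO, without overlap (log2 fold change -1.14 ± 0.14, adjusted p = 4.23e-08). Casq2 went from 24.2, 30.3, 21.9, 22.5 and 23.2 CPM in 9mCON to 70.3, 89.4, 111, 87.7 and 54.1 CPM in 9mTSCmKO (log2 fold change 1.76 ± 0.17, adjusted p = 9.03e-11). No Casq2 value of one genotype fell in the range of the other. Pvalb did not pass, at 20091, 21926, 15174, 13619.6 and 9811 CPM in 9mCON and 20891, 8678, 14266, 9151 and 10586 CPM in 9mTSCmKO (log2 fold change -0.34 ± 0.20, adjusted p = 0.177, 95% interval -0.75 to 0.06). Here replicate 1 of 9mTSCmKO stood apart at the top, and without it Pvalb passed (-0.59, adjusted p = 0.0149). It also passed with the long-transcript measure as a term (-0.44, adjusted p = 0.0233).

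Markers of slow fibers moved with Atp2a2, Casq2 and Sln. All 7 slow-fiber markers listed (Myh7 among them) were higher in 9mTSCmKO, and their summed TPM was 257 to 317 in 9mCON and 1645 to 4049 in 9mTSCmKO. Of 8 fast-fiber markers, 2 were lower and none higher at the threshold, with summed TPM of 124569 to 150843 and 112974 to 126495. Since EDL contains few slow fibers, heart muscle markers were also counted: 3 of the 4 tested were higher, with summed TPM of 127 to 332 in 9mCON and 268 to 645 in 9mTSCmKO. Nppa and Nppb were at 0 in every 9mCON and every 3mCON library, but each had counts in some libraries of 9mTSCmKO and 3mTSCmKO. Tendon markers were lower for 4 of 6, with sums of 57.4 to 109 TPM in 4 of the 9mCON libraries, 382 TPM in replicate 5 and 43.4 to 90.1 TPM in 9mTSCmKO. That 9mCON library was also the highest of its group for macrophage markers (37.0 TPM, others 8.04 to 14.7) and for Ryr1. Of the other lists, markers were lower for 2 of 5 of smooth muscle, 1 of 4 of Schwann cells and nerve, 2 of 4 of endothelium and 2 of 4 of adipocytes, macrophages had 1 higher and 1 lower of 4, and no erythroid marker passed. Adipocyte sums were without overlap (10.1 to 19.5 TPM in 9mCON and 1.72 to 7.25 TPM in 9mTSCmKO).

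Markers of denervated or immature fibers were counted as well, and their calls and their summed TPM did not go the same way. In 9mTSCmKO against 9mCON, 5 of the 6 tested were higher and 1 lower. The largest was Chrng, the fetal subunit of the acetylcholine receptor (log2 fold change 4.67 ± 0.56, adjusted p = 1.17e-08), and the lower one was Myh8, a myosin of newborn muscle (-0.67 ± 0.21, adjusted p = 0.0106). Both are named after their values were seen. The summed TPM went the other way from the count, with 513 to 1213 in 9mCON and 383 to 845 in 9mTSCmKO. From 3 to 9 months in TSCmKO 5 of the 6 were higher and none lower, and 4 of the 6 passed the genotype by age interaction, all higher. With rapamycin in 9mTSCmKO, 3 were lower, Chrng among them (-3.26 ± 0.48, adjusted p = 1.65e-06), and 2 higher, with sums of 785 to 1695 TPM. The part of all these cell types and states in the calcium gene results was not tested.

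**Figure D2:**
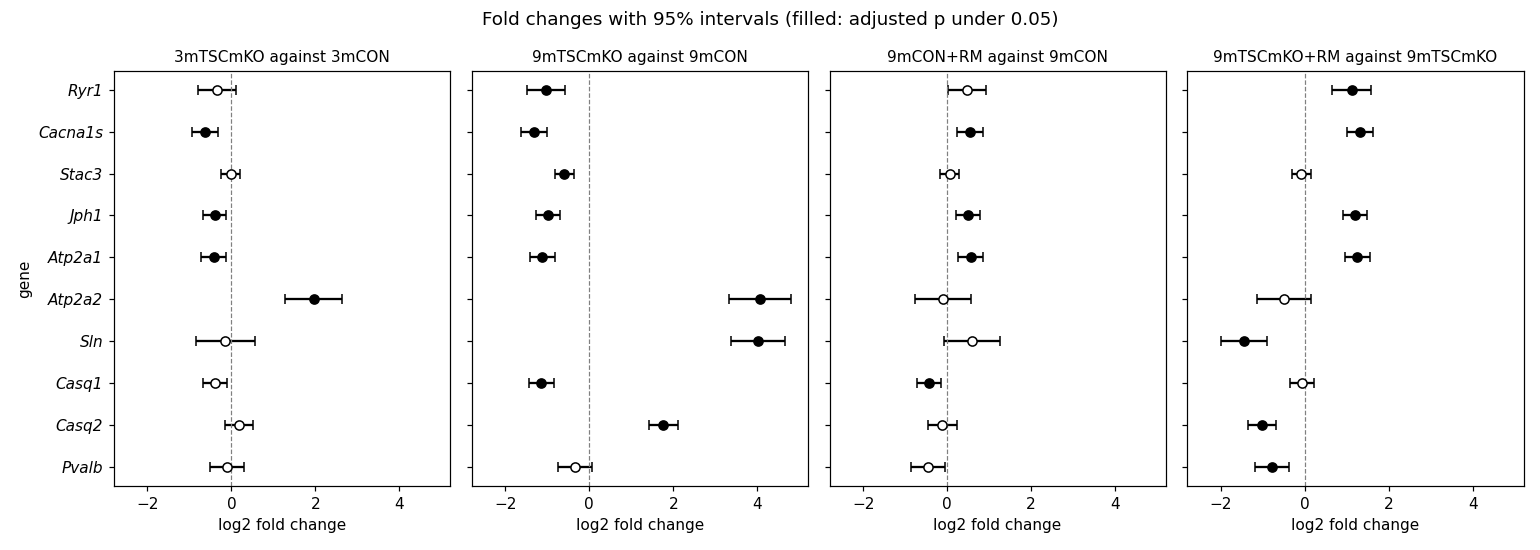
Log2 fold changes of the 10 genes in 4 comparisons, with 95% intervals, filled where the adjusted p was under 0.05. Rapamycin in 9mTSCmKO moved Ryr1, Cacna1s, Jph1 and Atp2a1 up, Sln, Casq2 and Pvalb down, and left Stac3, Casq1 and Atp2a2 short of the threshold.

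At 3 months, the comparison of genotypes asks how much of this was present earlier. Of the 10 genes, 4 passed, 1 higher and 3 lower, against 19.8% of all genes tested (11.4% higher and 8.32% lower). Only Jph1 was without overlap, where 19.6% of all genes were. Atp2a2 was at 68.6, 61.7, 146, 75.8 and 48.7 CPM in 3mCON and 329, 132, 391, 492 and 209.9 CPM in 3mTSCmKO (log2 fold change 1.95 ± 0.33, adjusted p = 3.08e-05). The groups touched, since replicate 3 of 3mCON was the highest control and replicate 2 of 3mTSCmKO the lowest knockout. The same libraries held the highest and lowest sums of the slow-fiber markers in their groups, 993 TPM in the control (others 260 to 492) and 376 TPM in the knockout (others 581 to 1861). Heart muscle markers separated these groups without overlap, with sums of 48.9 to 171 TPM in 3mCON and 178 to 1183 TPM in 3mTSCmKO, and 2 of the 4 tested were higher. By library they did not follow Atp2a2, since 3mCON replicate 3 had the lowest heart sum of its group (48.9 TPM). Smooth muscle sums also did not overlap, at 211 to 334 TPM in 3mCON and 160 to 209 TPM in 3mTSCmKO, with 2 of 5 markers lower. The part of these lists was not tested.

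Cacna1s values at 3 months were 1869.7, 2099.6, 1728, 2066 and 1549 CPM in 3mCON and 1230.3, 1564, 1125, 926 and 1148 CPM in 3mTSCmKO (log2 fold change -0.64 ± 0.15, adjusted p = 0.00208), with an overlap of 1 library. Atp2a1 (-0.42 ± 0.15, adjusted p = 0.0388) and Jph1 (-0.40 ± 0.14, adjusted p = 0.0367) passed narrowly. With 1 library left out at a time, the call of Atp2a1 was lost without 3mCON replicates 1, 2, 4 and 5 or 3mTSCmKO replicates 1, 3, 4 and 5 (-0.43 to -0.30, adjusted p 0.0577 to 0.136). That of Jph1 was lost without 3mCON replicates 1, 2 and 4 or 3mTSCmKO replicates 3, 4 and 5 (-0.41 to -0.30, adjusted p 0.0571 to 0.128). Casq1 just missed the threshold (-0.38 ± 0.14, adjusted p = 0.0514), and it passed without 3mCON replicate 3 or 3mTSCmKO replicates 2 and 5 (-0.49 to -0.42, adjusted p 0.0141 to 0.0496).

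Sln, Casq2, Stac3, Ryr1 and Pvalb did not pass at 3 months. Sln was at 1.06, 0.910, 0.950, 1.49 and 1.44 CPM in 3mCON and 1.12, 0.784, 1.54, 0.640 and 1.30 CPM in 3mTSCmKO, on 10 to 50 counts per library. Both groups covered the same low range (log2 fold change -0.14 ± 0.35, adjusted p = 0.82, 95% interval -0.85 to 0.56). Casq2 (0.19 ± 0.17, adjusted p = 0.473) and Stac3 (-0.02 ± 0.11, adjusted p = 0.937) had values in 3mTSCmKO of 20.6 to 39.2 and 152 to 246 CPM, around the control ranges of 24.5 to 32.8 and 176 to 228 CPM.

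The genotype effect differed between ages for 6 of the 10 genes, with a more positive log2 fold change at 9 months for 3 and a more negative one for 3, where 4.94% of all genes passed this interaction test (3.01% higher and 1.93% lower). Differences of the log2 fold changes were 4.16 ± 0.47, adjusted p = 1.36e-07 for Sln, 2.11 ± 0.46, adjusted p = 0.00475 for Atp2a2 and 1.57 ± 0.23, adjusted p = 5.21e-05 for Casq2. On the lower side were Casq1 (-0.76 ± 0.20, adjusted p = 0.0211), Atp2a1 (-0.70 ± 0.21, adjusted p = 0.0421) and Stac3 (-0.58 ± 0.16, adjusted p = 0.0232). The calls of Stac3 and Casq1 were lost without 3mCON replicate 3 or 3mTSCmKO replicate 2 (Stac3 -0.53 to -0.49, adjusted p 0.052 to 0.0664, Casq1 -0.69 to -0.65, adjusted p 0.0508 to 0.0606). The call of Atp2a1 was lost without 3mCON replicates 1, 2, 3 and 5, 3mTSCmKO replicates 1, 2, 3 and 5, 9mCON replicates 3, 4 and 5 or 9mTSCmKO replicates 1 and 3 (-0.73 to -0.55, adjusted p 0.0502 to 0.119). Cacna1s (-0.69 ± 0.22, adjusted p = 0.0538) passed without 3mTSCmKO replicate 4, 9mCON replicates 1 and 2 or 9mTSCmKO replicates 2, 4 and 5 (-0.82 to -0.73, adjusted p 0.017 to 0.0452), and Jph1 (-0.58 ± 0.20, adjusted p = 0.0808) without 3mTSCmKO replicate 4, 9mCON replicate 1 or 9mTSCmKO replicates 2 and 5 (-0.71 to -0.65, adjusted p 0.0233 to 0.04999). The 3 higher genes kept their calls in all 20 fits that left out 1 library.

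Age was also compared within each genotype, with the limit that the labels give insert sizes of 223 to 308 nt for 9-month and 175 to 239 nt for 3-month libraries, so that age and library preparation cannot be told apart. In CON, 0 of the 10 genes passed the edgeR test (3 at an unadjusted p under 0.05), against 1.02% of all genes (0.679% higher and 0.340% lower), and 0 were without overlap against 3.26%. DESeq2 also called 0. Without 9mCON replicate 5, Ryr1 (-0.69, adjusted p = 0.0453) and Pvalb (0.65, adjusted p = 0.0409) passed. In TSCmKO, 9 of 10 passed, 3 higher and 6 lower, against 37.4% of all genes (19.1% higher and 18.3% lower), and 4 were without overlap against 18.6%. Sln rose by 4.49 ± 0.32, adjusted p = 2.08e-13 on the log2 scale, Casq2 by 1.31 ± 0.17, adjusted p = 2.03e-07 and Atp2a2 by 1.19 ± 0.32, adjusted p = 0.00413. Slow-fiber markers were higher with age in TSCmKO for 5 of 7 (376 to 1861 TPM at 3 months and 1645 to 4049 TPM at 9 months). Sums without overlap were those of tendon (108 to 332 and 43.4 to 90.1 TPM, 5 of 6 lower and 1 higher) and adipocytes (8.97 to 65.2 and 1.72 to 7.25 TPM, 4 of 4 lower). Endothelial (3 of 4) and erythroid markers (4 of 5) were lower too, with overlapping sums. Of the fast-fiber markers, Myh2 (-1.30, adjusted p = 0.00575), Myh4 (-0.70, adjusted p = 0.00955) and Actn3 (-0.46, adjusted p = 0.024) were lower. The other fast-fiber markers did not pass, and these are named after their values were seen. The part of these lists was not tested. The lower genes were Ryr1 (-1.09, adjusted p = 0.000308), Cacna1s (-0.98, adjusted p = 6.83e-06), Atp2a1 (-0.96, adjusted p = 6.05e-06), Casq1 (-0.70, adjusted p = 0.000239), Jph1 (-0.63, adjusted p = 0.000702) and Stac3 (-0.29, adjusted p = 0.0361). With insert size as a term, a fit that drops 9mTSCmKO+RM replicate 5 for want of a label, 5 of 10 passed, without Atp2a2, Casq1, Jph1 and Stac3. The call of Stac3 was also lost without 3mTSCmKO replicates 1, 2, 3 and 5 or 9mTSCmKO replicates 1, 4 and 5 (-0.30 to -0.20, adjusted p 0.0528 to 0.165).

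Rapamycin was given for 3 days to ask which differences follow mTORC1 activity at the time. In 9mTSCmKO, 7 of the 10 genes passed, 4 higher and 3 lower with rapamycin, against 32.6% of all genes (15.8% higher and 16.8% lower). For 6 genes, 4 higher and 2 lower, the groups did not overlap, against 15.1% of all genes. All 7 calls remained in each of the 10 fits that left out 1 library.

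Of the release genes, 3 were higher with rapamycin in 9mTSCmKO. Ryr1 reached 555, 764, 1015, 662 and 647 CPM in 9mTSCmKO+RM, against the vehicle values listed above (log2 fold change 1.11 ± 0.23, adjusted p = 0.000243). Cacna1s came to 1352, 1635, 1724, 1438 and 1316 CPM (log2 fold change 1.30 ± 0.15, adjusted p = 3.59e-08). Jph1 was found at 710.2, 967, 933, 848 and 875 CPM (log2 fold change 1.19 ± 0.14, adjusted p = 3.88e-08). For these 3 genes every treated library was over every vehicle library of the genotype. Stac3, in contrast, gave 191, 149, 153, 124 and 139.6 CPM, a range around that of the vehicle group (log2 fold change -0.09 ± 0.11, adjusted p = 0.551, 95% interval -0.32 to 0.13).

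Of the reuptake genes, Atp2a1 was higher and Sln lower. Atp2a1 came to 36599, 34237, 32763, 27711 and 28111 CPM, all over the vehicle libraries (log2 fold change 1.24 ± 0.15, adjusted p = 4.71e-08). Sln came to 9.47, 10.3, 5.76, 10.96 and 7.87 CPM, all under the vehicle libraries and all over the 9mCON libraries (log2 fold change -1.45 ± 0.27, adjusted p = 5.82e-05). Atp2a2 did not pass, at 356, 505, 546, 499 and 611 CPM within the vehicle range for all but the lowest library (log2 fold change -0.50 ± 0.32, adjusted p = 0.239, 95% interval -1.15 to 0.15). Of the buffering genes, Casq2 was at 41.8, 34.2, 40.9, 39.4 and 45.8 CPM, below every vehicle library (log2 fold change -1.03 ± 0.16, adjusted p = 7.21e-06). Pvalb was lower with some overlap, at 10391, 6940.1, 5369, 6576 and 7619 CPM (log2 fold change -0.78 ± 0.20, adjusted p = 0.00259). Casq1 did not pass, at 2255, 1753, 1443, 1440.2 and 1510.2 CPM (log2 fold change -0.08 ± 0.14, adjusted p = 0.717, 95% interval -0.36 to 0.21). The summed slow-fiber markers were at 957 to 1677 TPM in 9mTSCmKO+RM against 1645 to 4049 TPM with vehicle. Of 8 fast-fiber markers 4 were higher, with overlapping sums (112974 to 126495 TPM with vehicle and 116979 to 141787 TPM with rapamycin). The part of both lists in these values was not tested.

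In 3mTSCmKO, 6 of 10 passed with rapamycin, 4 higher and 2 lower, against 23.6% of all genes (10.6% higher and 13.0% lower). Without overlap were 2 genes, Cacna1s higher and Pvalb lower, against 21.1% of all genes. Of all genes that passed this comparison 44.9% were higher, and 55.7% with upper-quartile in place of TMM scaling. Cacna1s (0.86 ± 0.15, adjusted p = 4.56e-05), Atp2a1 (0.58 ± 0.15, adjusted p = 0.00319) and Ryr1 (0.68 ± 0.23, adjusted p = 0.0247) were higher. The call of Ryr1 was lost without 3mTSCmKO replicate 4 or 3mTSCmKO+RM replicates 2 and 4 (0.58 to 0.65, adjusted p 0.0503 to 0.0797). Sln was higher too, at 2.92, 2.94, 0.971, 3.45 and 2.25 CPM against 1.12, 0.784, 1.54, 0.640 and 1.30 CPM, on 12 to 88 counts per library (log2 fold change 1.24 ± 0.32, adjusted p = 0.00378). Here 4 of the 5 treated libraries were over all vehicle libraries, and the sign was opposite to that at 9 months, a difference between ages that was not tested. Markers of denervated or immature fibers moved with this comparison without overlap (369 to 866 TPM with vehicle, 900 to 1438 TPM with rapamycin, 4 of 6 higher). The slow-fiber sum had a median of 1161 TPM with vehicle and 501 TPM with rapamycin, with overlap. The part of both lists was not tested. Pvalb (-0.70 ± 0.20, adjusted p = 0.00927) and Stac3 (-0.49 ± 0.11, adjusted p = 0.00097) were lower. Atp2a2 missed the threshold (-0.77 ± 0.32, adjusted p = 0.0797), and it passed without 3mTSCmKO replicate 2 (-0.97, adjusted p = 0.0244), the vehicle-treated 3mTSCmKO library with the lowest sum of slow-fiber markers.

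In 9mCON, 4 of 10 passed with rapamycin, 3 higher and 1 lower, against 11.8% of all genes (5.03% higher and 6.82% lower). The same 4 genes did not overlap between the groups, against 6.64% of all genes. By limma 2 passed, and 1 with only the compared groups in the fit. Atp2a1 was at 46152, 43668, 38782, 43144 and 43363 CPM in 9mCON+RM, over every 9mCON library (log2 fold change 0.56 ± 0.15, adjusted p = 0.0104). Cacna1s (0.54 ± 0.15, adjusted p = 0.015) and Jph1 (0.48 ± 0.14, adjusted p = 0.0197) were higher and Casq1 (-0.43 ± 0.14, adjusted p = 0.0413) lower. Calls were lost without 9mCON replicate 1 for Cacna1s (0.45, adjusted p = 0.0655), without 9mCON replicate 1 or 9mCON+RM replicates 2 and 5 for Jph1 (0.39 to 0.44, adjusted p 0.059 to 0.082) and without 9mCON replicates 2, 3 and 4 or 9mCON+RM replicates 1, 2 and 5 for Casq1 (-0.44 to -0.38, adjusted p 0.0608 to 0.107). Without 9mCON replicate 5, 6 genes passed, with Ryr1 (0.75, adjusted p = 0.0204) and Pvalb (-0.60, adjusted p = 0.044) added. Marker sums of heart muscle (127 to 332 TPM in 9mCON and 32.1 to 48.9 in 9mCON+RM) and tendon (57.4 to 382 and 23.0 to 53.3) moved with this comparison without overlap, and those of macrophages with overlap (8.04 to 37.0 and 2.72 to 10.8). Their part was not tested. In 3mCON, 0 of 10 passed by edgeR (1 at an unadjusted p under 0.05), against 0.679% of all genes (0.362% higher and 0.318% lower). Even so, Cacna1s and Atp2a1 were higher in every 3mCON+RM library than in any 3mCON library, where 5.41% of all genes did not overlap. For Cacna1s the lowest treated library was at 2339 CPM and the highest vehicle library at 2099.6 CPM, and for Atp2a1 they were at 38740.0 and 37914 CPM. The gene at an unadjusted p under 0.05 was Cacna1s, which DESeq2 called (0.52, adjusted p = 0.0493), and for which edgeR gave 0.52 ± 0.15, adjusted p = 0.117.

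The rapamycin effect at 9 months differed between genotypes for 5 of 10 genes, against 4.87% of all genes (2.56% higher and 2.31% lower). Sln (-2.05 ± 0.43, adjusted p = 0.00362) and Casq2 (-0.91 ± 0.23, adjusted p = 0.017) had a negative difference, TSCmKO minus CON. Cacna1s (0.75 ± 0.22, adjusted p = 0.0334), Jph1 (0.71 ± 0.20, adjusted p = 0.03) and Atp2a1 (0.69 ± 0.21, adjusted p = 0.0464) had a positive one. Sln was past the threshold under every alternative run, whereas Casq2 missed it with limma (-0.73, adjusted p = 0.0638) and with only the compared groups in the fit (-0.91, adjusted p = 0.0501). In both of those Sln was the only one of the 5 to pass. The calls of Cacna1s, Jph1 and Atp2a1 were each lost in several of the 20 fits that left out 1 library. That was so for Cacna1s without 9mCON replicates 3, 4 and 5, 9mCON+RM replicates 1 and 5, 9mTSCmKO replicates 1 and 3 or 9mTSCmKO+RM replicates 2 and 3 (0.61 to 0.73, adjusted p 0.0537 to 0.0918). Jph1 lost its call without 9mCON replicates 4 and 5, 9mCON+RM replicate 1, 9mTSCmKO replicates 1 and 3 or 9mTSCmKO+RM replicates 2 and 3 (0.59 to 0.68, adjusted p 0.0549 to 0.0651). Atp2a1 lost its call without 9mCON replicates 3, 4 and 5, 9mCON+RM replicates 1, 2, 3, 4 and 5, 9mTSCmKO replicates 1, 3, 4 and 5 or 9mTSCmKO+RM replicates 1, 2 and 3 (0.57 to 0.71, adjusted p 0.0509 to 0.107). At 3 months 0 of 10 passed this interaction by edgeR (1 at an unadjusted p under 0.05) and 0 by DESeq2, against 3.45% of all genes (1.36% higher and 2.09% lower). That gene was Stac3 (-0.45 ± 0.16, adjusted p = 0.117), which passed without 3mTSCmKO replicate 4 (-0.52, adjusted p = 0.048).

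With rapamycin in both genotypes, 8 of 10 genes differed by genotype at 9 months, 3 higher and 5 lower, against 20.6% of all genes (11.3% higher and 9.33% lower), and 7 of them without overlap against 13.6%. Atp2a2 (3.67 ± 0.36, adjusted p = 1.11e-09), Sln (1.97 ± 0.30, adjusted p = 3.39e-06) and Casq2 (0.84 ± 0.17, adjusted p = 0.000211) were higher in TSCmKO. Slow-fiber marker sums separated these groups as well (209 to 737 TPM in 9mCON+RM and 957 to 1677 TPM in 9mTSCmKO+RM), as did heart marker sums (32.1 to 48.9 and 149 to 370 TPM), and their part was not tested. Casq1 (-0.79 ± 0.14, adjusted p = 6.24e-05), Stac3 (-0.75 ± 0.11, adjusted p = 2.28e-06), Pvalb (-0.67 ± 0.20, adjusted p = 0.0141), Cacna1s (-0.57 ± 0.15, adjusted p = 0.00549) and Atp2a1 (-0.43 ± 0.15, adjusted p = 0.032) were lower. The call of Atp2a1 was lost without 9mCON+RM replicates 1, 2, 4 and 5 or 9mTSCmKO+RM replicates 4 and 5 (-0.43 to -0.39, adjusted p 0.053 to 0.09), and that of Pvalb without 9mCON+RM replicate 1 or 9mTSCmKO+RM replicate 3 (-0.57 to -0.55, adjusted p 0.0518 to 0.0591). Ryr1 (-0.40 ± 0.22, adjusted p = 0.229, 95% interval -0.85 to 0.06) and Jph1 (-0.28 ± 0.14, adjusted p = 0.169, 95% interval -0.56 to 0.01) did not pass. This comparison shares 9mTSCmKO+RM with the test of rapamycin in that genotype. At 3 months with rapamycin, 2 of 10 differed, against 10.03% of all genes (5.67% higher and 4.36% lower): Atp2a2 was higher (1.71 ± 0.33, adjusted p = 0.000453) and Stac3 lower (-0.47 ± 0.11, adjusted p = 0.00403). The groups did not overlap for 5 genes, Atp2a2 and Casq2 (higher) and Stac3, Jph1 and Pvalb (lower), against 14.3% of all genes. Heart marker sums did not overlap either (46.9 to 199 TPM in 3mCON+RM and 222 to 960.2 TPM in 3mTSCmKO+RM), while slow-fiber sums did (182 to 487 and 247 to 983 TPM). Their part was not tested. Casq2 and Pvalb also passed with DESeq2, with limma, with the long-transcript measure as a term and without the 4 libraries where it was low, 4 genes in each. With only the compared groups in the fit Cacna1s and Jph1 passed too, 6 in all. Casq2 (0.48 ± 0.17, adjusted p = 0.0559) passed without 3mCON+RM replicates 2 and 4 (0.56 to 0.57, adjusted p 0.0348 to 0.0406).

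Since pumps and calsequestrins each come as a fast and a slow or cardiac form, the share of the latter was computed within each library from TPM, where total scaling cancels. Atp2a2 made up 0.0895 ± 0.0180% of pump TPM in 9mCON, 2.89 ± 1.07% in 9mTSCmKO and 1.09 ± 0.306% in 9mTSCmKO+RM. Atp2a1 thus remained by far the main pump transcript in every group. Casq2 made up 0.500 ± 0.0732%, 3.47 ± 0.804% and 2.03 ± 0.416% of calsequestrin TPM in the same groups. Sln stood at 0.0981 ± 0.0360, 3.11 ± 1.82 and 0.535 ± 0.148 TPM per 1000 TPM of both pumps.

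The log2 ratios were compared by two-sided exact permutation of 5 against 5 libraries, where the smallest p possible is 0.00794, and adjusted over 24 tests. By genotype at 9 months the differences were 4.999, adjusted p = 0.0238 for Atp2a2 to Atp2a1, 2.82, adjusted p = 0.0238 for Casq2 to Casq1 and 4.87, adjusted p = 0.0238 for Sln to both pumps. With rapamycin in 9mTSCmKO they were -1.42, adjusted p = 0.0238, -0.78, adjusted p = 0.0346 and -2.40, adjusted p = 0.0238 in that order. Both pump-based ratios have Atp2a1 in the denominator, and by gene Atp2a1 passed in this comparison whereas Atp2a2 did not. From 9mTSCmKO to 9mTSCmKO+RM, mean TPM went from 11262 to 23292 for Atp2a1 and from 347 to 255 for Atp2a2. The Casq ratio lost its call without 9mTSCmKO replicate 4 (-0.69, adjusted p = 0.0519). At 3 months the genotype difference was 2.38, adjusted p = 0.0346 for the pumps, 0.55, adjusted p = 0.168 for the calsequestrins and 0.28, adjusted p = 0.435 for Sln. The pump ratio at 3 months lost its call without 3mCON replicates 1, 2, 4 and 5, each in turn (2.19 to 2.35, adjusted p 0.0586 to 0.0693). The Casq ratio at 3 months passed without 3mTSCmKO replicate 2 (0.82, adjusted p = 0.0190).

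From 3 to 9 months the ratios of TSCmKO rose, by 1.88, adjusted p = 0.0346 for the pumps, 1.81, adjusted p = 0.0238 for the calsequestrins and 5.18, adjusted p = 0.0238 for Sln. In CON, where no single gene passed, the pump ratio (-0.74, adjusted p = 0.0476) and the calsequestrin ratio (-0.46, adjusted p = 0.0238) were lower at 9 months, and that of Sln did not pass (0.58, adjusted p = 0.114). Both calls in CON were lost with CPM in place of TPM, and the pump call also with 1 TPM added (-0.70). The pump call in CON was also lost in 8 of 10 permutation tests that left out 1 library, namely 3mCON replicates 1, 2, 3 and 4 or 9mCON replicates 1, 2, 3 and 4 (-0.81 to -0.41, adjusted p 0.0952 to 0.111). In TSCmKO the pump call was lost without 9mTSCmKO replicate 2 or 4 (1.70 to 1.80, adjusted p = 0.0635).

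**Figure D3:**
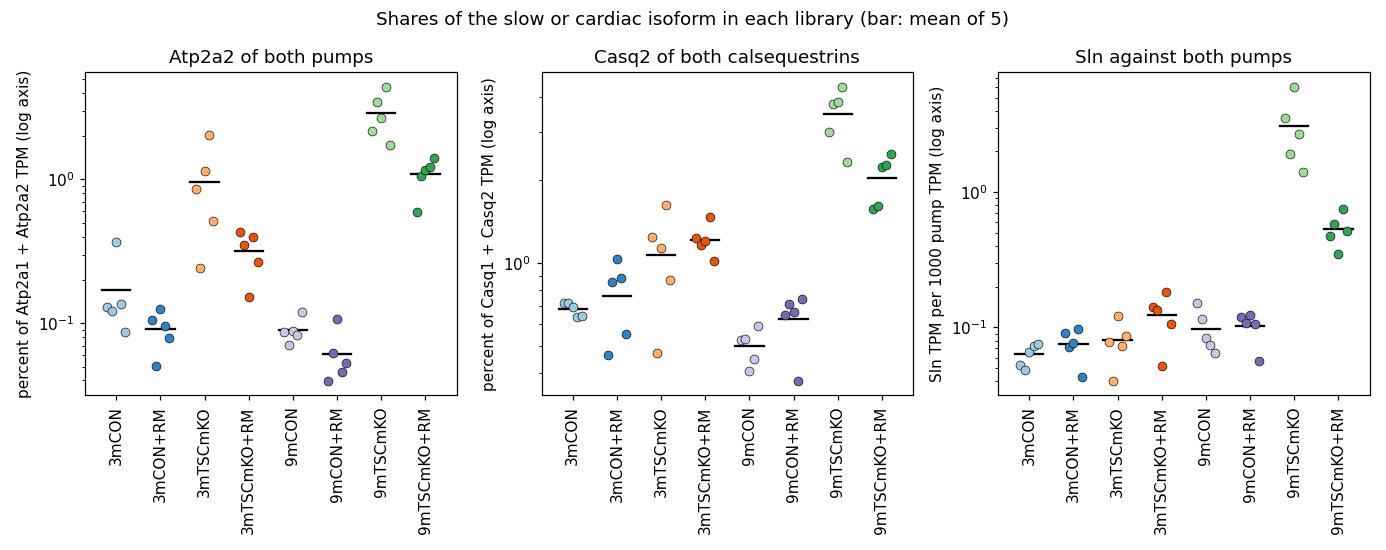
Share of Atp2a2 in pump TPM, of Casq2 in calsequestrin TPM (both in percent) and Sln per 1000 pump TPM, by library on log axes, with a bar at the mean of 5. The 9mTSCmKO group has the highest mean in all 3 panels, with libraries at 1.74% to 4.43% for Atp2a2, 2.33% to 4.37% for Casq2 and 1.42 to 6.03 for Sln, and the 9mTSCmKO+RM means lie between those of 9mTSCmKO and 9mCON.

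Levels of the slow-fiber markers and of the 3 genes were set side by side in every library. The library with the most marker TPM, 9mTSCmKO replicate 4, also had the most Atp2a2 (578 TPM), and the 5 libraries of 3mTSCmKO had the same order in both measures. In 9mTSCmKO the order broke: replicate 3 had 3870 TPM of the markers and 258 TPM of Atp2a2, and replicate 2 had 2325 TPM of the markers and 486 TPM of Atp2a2. Sln did not follow at 3 months: 3mTSCmKO replicate 4 had 1861 TPM of the markers and 0.943 TPM of Sln, whereas 9mTSCmKO replicate 5 had 1645 TPM of the markers and 17.0 TPM of Sln. These are single libraries, chosen after their values were seen.

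**Figure D4:**
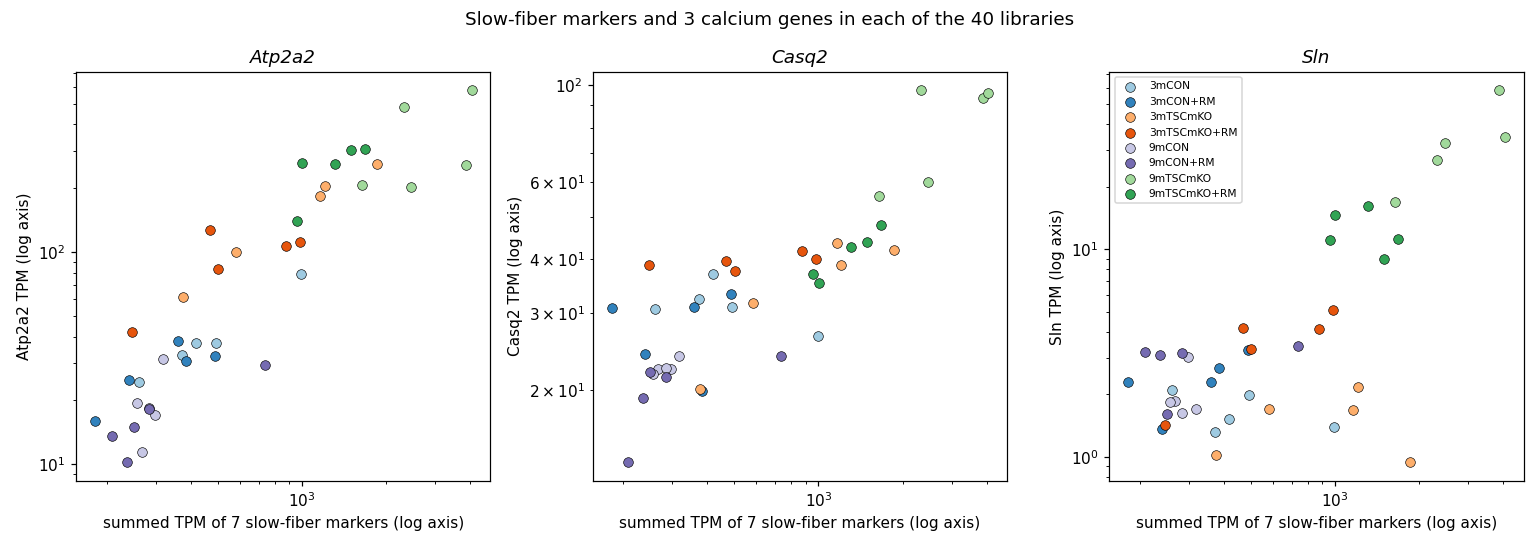
Summed TPM of 7 slow-fiber markers (x) against TPM of Atp2a2, Casq2 and Sln (y) in each of the 40 libraries, log axes, colored by group. The 9mTSCmKO libraries have the highest values of Casq2 and Sln, and the 3mTSCmKO libraries span 376 to 1861 TPM of the markers with Sln at 0.943 to 2.17 TPM.

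A further 80 genes of calcium handling were listed by role, of which 71 were tested. In 9mTSCmKO against 9mCON, 14 were higher and 31 lower (37.9% of all genes passed in either direction), and at 3 months 5 were higher and 14 lower, against 11.4% and 8.32% of all genes. Of the 22 tested partners of the release channel, 4 were higher and 10 lower, among them Stac (-2.03 ± 0.47, adjusted p = 0.00078), a relative of Stac3, Fkbp1b (1.904 ± 0.38, adjusted p = 0.000137), which binds ryanodine receptors, and the inositol trisphosphate receptor Itpr1 (-1.39 ± 0.12, adjusted p = 9.24e-12). Among 4 pump genes and regulators, myoregulin (Mrln), another pump-inhibiting peptide, was lower (-1.71 ± 0.28, adjusted p = 8.69e-06), Atp2a3 was lower (-0.82 ± 0.11, adjusted p = 3.13e-07) and phospholamban (Pln) was higher (0.61 ± 0.20, adjusted p = 0.0168).

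Of 5 plasma membrane extrusion genes, 4 were lower and none higher, with the calcium pump Atp2b3 at -1.29 ± 0.16 (adjusted p = 1.58e-08) and the sodium-calcium exchanger Slc8a1 at -1.21 ± 0.28 (adjusted p = 0.000784). Of 9 genes of mitochondrial calcium transport, 2 were higher and 1 lower, a count no higher than the 37.9% of all genes would give. They were the uniporter regulator Micu2 (1.16 ± 0.10, adjusted p = 4.36e-12), the exchanger Slc8b1, which carries calcium out of mitochondria (1.07 ± 0.15, adjusted p = 6.69e-07), and the uniporter pore Mcu (-0.79 ± 0.18, adjusted p = 0.000449). Cytosolic binders included Tnnc1, slow troponin C and also 1 of the slow-fiber markers (3.48 ± 0.64, adjusted p = 5.13e-05). Store-operated entry genes had 2 higher, Orai2 (0.86 ± 0.28, adjusted p = 0.0156) and Orai1 (0.68 ± 0.14, adjusted p = 0.00022), and 2 lower. The calcineurin, CaMKII and calpain genes had 4 higher and 10 lower of 19, with the kinase Camk2a at -0.93 ± 0.13 (adjusted p = 1.49e-07).

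With rapamycin in 9mTSCmKO, 24 of the 71 were higher and 12 lower, against 32.6% of all genes in either direction. Of the genes named for genotype, Stac (1.499 ± 0.49, adjusted p = 0.018), Atp2b3 (1.34 ± 0.16, adjusted p = 2.36e-08), Atp2a3 (0.73 ± 0.11, adjusted p = 5.23e-06) and Mcu (0.45 ± 0.18, adjusted p = 0.0461) were higher. Fkbp1b (-1.05 ± 0.36, adjusted p = 0.0217), Pln (-0.59 ± 0.20, adjusted p = 0.0241), Orai1 (-0.49 ± 0.14, adjusted p = 0.00647) and Micu2 (-0.29 ± 0.10, adjusted p = 0.0201) were lower. Tnnc1 was lower too (-1.58 ± 0.58, adjusted p = 0.0361). Mrln and Slc8a1, both lower by genotype, did not pass with rapamycin. Values of Itpr1, Slc8b1, Orai2 and Camk2a with rapamycin are not given here. A reversal of the named genes as a whole is therefore not shown. The calcineurin inhibitor Rcan1 was higher (1.69 ± 0.25, adjusted p = 1.65e-06). The genotype and rapamycin comparisons share the 9mTSCmKO libraries.

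Across all 40 libraries, Pearson's r of log2(CPM + 1) is given as a description, since libraries of a group share genotype, age and treatment. Cacna1s and Atp2a1 had r = 0.96 with each other, Ryr1 and Cacna1s 0.93, and Jph1 and Atp2a1 0.89. Stac3 had r = 0.07 with Ryr1 and 0.68 with Pvalb. The longest coding transcripts of Ryr1, Stac3 and Pvalb have 15358, 1790 and 977 nt. Long-transcript recovery varied between libraries, and its part in these values of r was not tested. Among all genes with a mean of at least 5 CPM, the 2 most like each member were Sptb (0.96) and Neb (0.95) for Ryr1, Srl (0.96) and Atp2a1 for Cacna1s, Snrpb (0.91) and Them6 (0.91) for Stac3, and Klhl21 (0.92) and Txlnb (0.92) for Jph1. For Atp2a1 they were Cacna1s and Pygm (0.96), for Atp2a2 Kcnip2 (0.95) and Myl2 (0.94), and for Sln Uchl1 (0.92) and Serpinb1a (0.92). Casq1 was most like Gpd1 (0.88) and Slc37a4 (0.88), Casq2 like Nt5c2 (0.87) and Serpinb1a (0.87), and Pvalb like Capzb (0.91) and U2af1l4 (0.88).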

How the data were processed

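Poly(A) RNA of whole EDL muscles was sequenced as directional single-end reads of 50 bases. The authors trimmed adapters with cutadapt 1.9.1 and assigned reads with kallisto 0.43.1 to Ensembl transcripts of GRCm38, sharing a read equally among the transcripts it hit. The deposited tables hold estimated counts per gene, whole numbers here, and TPM computed by the authors.

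Groups came from the labels. Counts were tested with edgeR 4.0.16 (R 4.3.3): genes with 1 CPM in 5 or more libraries, TMM scaling, 8 group means fitted to all 40 libraries, robust quasi-likelihood tests, 13 contrasts and Benjamini-Hochberg adjustment at 0.05. Ratios of TPM were tested by exact permutation. Intervals are 95%. The test was checked on simulated data. Alternatives were DESeq2 1.42.0, limma 3.58.1 on log2(TPM + 1), other scaling, filters and terms, and leaving out each library. The transcript-length term and the joint removal of 4 libraries were added after the data had been seen.

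The 10 genes and all lists were chosen with earlier results of these data known. Named genes are the 10, Tsc1, at most 3 of the largest called changes per role list and comparison, and the 2 best correlates of each member. Each library came from 1 mouse.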

Additional observations from a re-analysis of the deposited data

Results flagged for a closer look

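Of 80 sets of 5 libraries (10 genes in 8 groups), 4 had a library far from the other 4 by Dixon's test, and chance alone gives about 1 in 20. In 3mCON, replicate 3 was lowest for Atp2a1 (27488 CPM) and highest for Atp2a2 (146 CPM). This library also had the most slow-fiber marker TPM of its group (993). Cacna1s was highest in 9mCON+RM replicate 4 (2547 CPM), and Casq2 in 9mCON replicate 2 (30.3 CPM), one of the 4 libraries with a low long-transcript measure.

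Genotype effects differed between 3 and 9 months by an interaction test for 6 genes. The differences of log2 fold changes were 4.16 for Sln, 2.11 for Atp2a2, 1.57 for Casq2, -0.58 for Stac3, -0.70 for Atp2a1 and -0.76 for Casq1. Rapamycin effects at 9 months differed between TSCmKO and CON for 5 genes, by 0.75 for Cacna1s, 0.71 for Jph1, 0.69 for Atp2a1, -2.05 for Sln and -0.91 for Casq2. Insert sizes also differed between the ages, and age and library preparation cannot be told apart. Causes were not tested.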

How the results depend on the processing

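No result reversed under the alternatives run. Without the filter on low counts, 2 of the 10 genes passed for genotype at 3 months and 2 for rapamycin by genotype at 9 months. With only the compared groups in the fit, 6 passed for genotype under rapamycin at 3 months, 3 for genotype by age, 1 for rapamycin in 9mCON, 1 for rapamycin in 3mCON and 1 for rapamycin by genotype at 9 months. DESeq2 gave 4 for genotype under rapamycin at 3 months and 1 for rapamycin in 3mCON. The limma test gave 4 for genotype under rapamycin at 3 months, 2 for rapamycin in 9mCON and 1 for rapamycin by genotype at 9 months. Insert size as a term gave 5 for age in TSCmKO. The transcript-length term gave 4 for genotype under rapamycin at 3 months, 1 for rapamycin in 3mCON and 1 for rapamycin by genotype at 3 months. Leaving out the 4 libraries of low long-transcript measure gave 4 for genotype under rapamycin at 3 months, and 3 and 1 for rapamycin by genotype at 9 and 3 months. The cause was not tested.

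With 1 library left out, genes passing ranged over 9 to 10 for genotype at 9 months, 2 to 5 at 3 months, 6 to 8 and 2 to 3 under rapamycin at 9 and 3 months, 3 to 8 for genotype by age, 7 to 7 and 5 to 7 for rapamycin in TSCmKO at 9 and 3 months, 2 to 6 and 0 to 0 in CON, 2 to 5 and 0 to 1 for rapamycin by genotype, and 0 to 2 and 8 to 9 for age in CON and TSCmKO.

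Same-numbered libraries were not paired in the labels, and their deviations correlated at -0.46 to 0.56, in no comparison over 0.1 for all 5 pairs. A replicate block added 2 calls, Casq1 for genotype at 3 months (-0.39) and Cacna1s for genotype by age (-0.70), and ended none. For the ratios the block cannot pass, since its smallest p is 0.0625. CPM ratios in place of TPM ratios ended both calls for age in CON (-0.58 for the pumps and -0.32 for the calsequestrins), and 1 TPM added ended the first (-0.70). Differences of group means had the same sign in CPM and TPM for 98 of 100 gene comparisons. Sln rested on 10 to 88 counts per library at 3 months, which limits it.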

Other observations

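Fold changes of long and short transcripts are given as medians, with no test. For age in CON the median log2 fold change was -0.21 over the 902 genes of 7000 nt or more and 0.19 over the 1706 genes of 1000 to 2000 nt, and for age in TSCmKO it was -0.36 and 0.20. For genotype at 9 months the medians were -0.18 and 0.03, and for rapamycin in 9mTSCmKO 0.14 and -0.10. Ryr1 itself gave -0.41, -1.09, -1.03 and 1.11 in these comparisons, so that in CON the gap between both medians was about as large as the Ryr1 value, which did not pass. Their part in the Ryr1 values was not tested beyond the term described above.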
